A study of Ambystoma mexicanum with 8 samples.

Results

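The subject is the miRNAs miR-142, miR-146, miR-150, miR-155 and miR-223, which are known from mammals as miRNAs of white blood cells. Their levels were followed in the regenerating forelimb of the axolotl, *Ambystoma mexicanum*. Rows of the miRNA table were taken by these numbers alone, with any letter or arm, and 6 of the 143 mature miRNAs were found: miR-223-3p, miR-142a-5p, miR-155-5p, miR-146a-5p, miR-146b-5p and miR-150-5p. Axolotls from the Ambystoma Genetic Stock Center had a forelimb amputated through the middle of the forearm (the zeugopod) under anesthesia. Tissue was taken from uninjured limbs (0 days post-amputation, dpa) and at 3, 6 and 14 dpa, and 1 small RNA library and 1 mRNA library were sequenced per stage. No transgene, drug or genetic change separated the stages, and the strain is not given in the sources used here. Each library came from a pool of at least 4 tissues, so animals cannot be told apart and no difference between stages has a replicate check.

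A miRNA is cut from a hairpin RNA as a short single strand, and it directs the silencing complex to mRNAs that pair with its bases 2 to 8, the seed. In mammals, miR-142 is made in nearly all blood cells and miR-223 chiefly in neutrophils and monocytes. miR-150 is abundant in mature lymphocytes, while miR-155 is induced in activated macrophages and lymphocytes. miR-146a and miR-146b are induced by NF-κB signalling and dampen it, and they are also made outside the blood. After a limb is amputated, white blood cells enter the stump before the blastema, the mass of proliferating cells that rebuilds the limb, has formed.

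The sequences are shown because the seed decides which of the 6 miRNAs can share targets, and because 1 name and its sequence do not match. They are the axolotl sequences that the study listed, 5′ to 3′, written with T for U and with the seed in capitals.
miR-223-3p: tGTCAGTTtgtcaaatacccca
miR-142a-5p: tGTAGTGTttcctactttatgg
miR-155-5p: tTAATGCTaatcgtgatagg
miR-146a-5p: tGAGAACTgaattccatggact
miR-146b-5p: tGAGAACTgaattccatgggctgt
miR-150-5p: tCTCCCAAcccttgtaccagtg

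The 6 miRNAs held 5 distinct seeds. miR-146a-5p and miR-146b-5p shared theirs and differed by A20G, counted from 1 at the 5′ end of miR-146a-5p, and by 2 more bases at the 3′ end of miR-146b-5p. No other miRNA of the table carried any of these seeds. All 6 began with T, as did 91 of the 143 miRNAs (63.6%). Their lengths ran from 20 to 24 bases, against a median of 22 over all miRNAs, and their GC content from 35% to 54.5%, against a median of 45%.

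The row named miR-142a-5p carried the sequence that the study's own list calls miR-142-3p, and its seed differs from that of the zebrafish miR-142a-5p in the same study. It is called miR-142a-5p here as in the table, but its values are those of the 3p strand. miR-223-3p was identical to the zebrafish and bichir sequence. miR-150-5p differed from zebrafish by C9T, just outside the seed, with positions counted from the 5′ end of the axolotl sequence. miR-146a-5p differed from zebrafish by G18A, C21T and T22G, all in its 3′ part.

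The deposited values of at least some miRNAs were the read numbers of 1 sequence tag rather than a sum over variants. For 68 of the 143 miRNAs, a tag with the listed sequence and with the same reads in all 4 libraries was found in the study's list of small RNA tags, and 3 of these were miR-223-3p, miR-142a-5p and miR-146a-5p. The listed sequences of miR-155-5p, miR-146b-5p and miR-150-5p were not found there, so this was not settled for them. The same list held variants that are not part of the values below. These variants are shown because they bear on which targets the reads stand for.
miR-223-3p variant: tGTCAGTTtgtcaaataccccaa
miR-142a-5p variant: gTAGTGTTtcctactttatgga
The first was 1 base longer at the 3′ end and kept the seed. The second began 1 base later, so that its bases 2 to 8 formed another seed.

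In order of stage, the small RNA libraries held 1297551, 901281, 1262929 and 1918841 miRNA reads. Levels are given as reads in every 1000000 of a library (cpm) after scaling with the trimmed mean of M values (TMM), here called scaled cpm. A miRNA was called higher or lower past 0.58 on the log2 scale, a 1.49-fold change, and changes carry 95% intervals that cover counting error only. Changes at 3, 6 and 14 dpa are all taken against the same 0 dpa library and are not independent of each other. The tissue was checked against miRNA lists for other cell types. The 7 skeletal muscle miRNAs held 260222, 42906, 32440 and 9324 reads in sum, with 4, 5 and 7 of them lower at 3, 6 and 14 dpa and 153884 of the first sum from miR-206. For cartilage, miR-140-3p held 325754, then 51098, 14954 and 12400 reads. In contrast, 9 epithelial miRNAs held 36547, 21538, 164583 and 214498 reads, of which miR-203a-3p supplied 126034 at 6 dpa and 169465 at 14 dpa. In scaled cpm their sum was 20266, 22353, 154659 and 139955. At 3 dpa, 2 of the 9 had risen past the cut-off and 2 had fallen past it; at each later stage 6 had risen and 1 had fallen. miR-126a-5p of endothelium held 2991, 2340, 2354 and 3619 reads. In scaled cpm these were 1659, 2429, 2212 and 2361, with log2 changes of 0.55, 0.42 and 0.51, all under the cut-off. None of these miRNAs was at 0 reads in any library. These differences occurred at the same stages as the changes below, and their part in them was not tested. In bulk tissue, fewer cells of a type and less RNA per cell cannot be told apart.

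At 3 dpa, 4 of the 6 miRNAs were higher than in the uninjured limb, 1 was lower and 1 lay between. Of all 143 miRNAs, 28% were higher and 27.3% were lower. The median log2 change of the 6 was 2.19, or 2.28 without miR-146b-5p, against 0.05 over all miRNAs. At 6 dpa, 4 were higher and 1 lower, where 38.5% of all miRNAs were higher and 43.4% lower. At 14 dpa, 4 were higher and 1 lower, where 35% of all were higher and 39.2% lower. From 3 to 6 dpa, 1 of the 5 that could be compared was higher and 1 lower, against 29.7% and 39.9% of all miRNAs. From 6 to 14 dpa, 1 was higher and 3 were lower, against 27.9% and 22.9%.

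**Figure D1:**
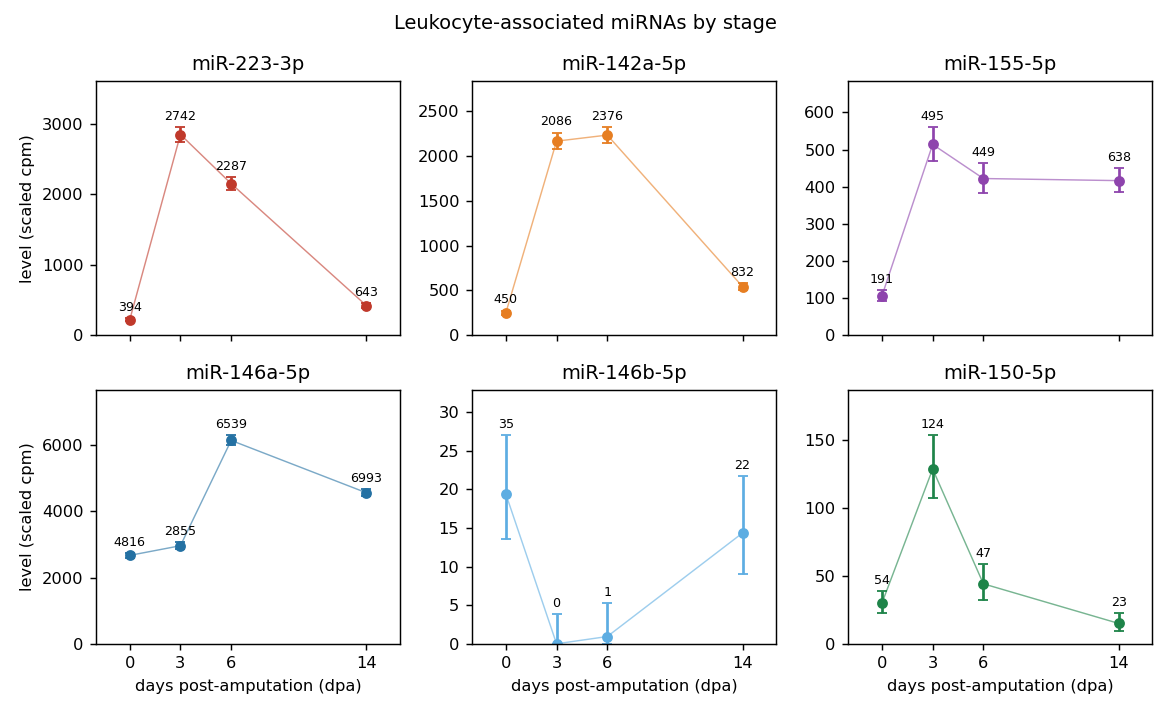
Level of each of the 6 miRNAs in scaled cpm (vertical axis, from 0) against days post-amputation, 1 library per stage. Bars are 95% counting intervals, and the number above each point is its reads; miR-223-3p, miR-142a-5p, miR-155-5p and miR-150-5p stand higher at 3 dpa than at 0 dpa, miR-146a-5p stands highest at 6 dpa, and miR-146b-5p has 0 reads at 3 dpa.

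miR-223-3p, the myeloid miRNA, rose most. It had 394 reads in uninjured tissue, then 2742, 2287 and 643 reads at 3, 6 and 14 dpa, which are 218, 2846, 2149 and 420 scaled cpm. The 3 dpa library was highest and the uninjured library lowest, and no counting intervals of these levels overlapped. At 3 dpa its level was 13.0-fold that at 0 dpa, a log2 change of 3.70 (95% interval 3.55 to 3.86), the fourth largest rise of the 143. The change was 3.30 (3.14 to 3.46) at 6 dpa. It was 0.94 (0.76 to 1.13) at 14 dpa, so that most of the rise had been lost again. Between 6 and 14 dpa its level fell by 2.36 on the log2 scale (interval -2.49 to -2.23), rank 136 of 140 when ordered from the largest rise.

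miR-142a-5p, the miRNA of blood cells in general, took nearly the same course. It had 450, 2086, 2376 and 832 reads at 0, 3, 6 and 14 dpa, or 250, 2165, 2233 and 543 scaled cpm. The 3 and 6 dpa libraries were high and overlapped in their intervals, the 14 dpa library was lower, and the uninjured library was lowest. The log2 changes against 0 dpa were 3.12 (2.97 to 3.27) at 3 dpa, 3.16 (3.02 to 3.31) at 6 dpa and 1.12 (0.95 to 1.29) at 14 dpa.

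miR-155-5p, induced on activation of mammalian macrophages and lymphocytes, rose less and stayed above its uninjured level. Its reads were 191, 495, 449 and 638 in order of stage, or 106, 514, 422 and 416 scaled cpm. All 3 regenerating libraries stood above the uninjured one, 3 dpa was highest, and those at 6 and 14 dpa overlapped. Its log2 change was 2.28 (2.03 to 2.53) at 3 dpa, 1.99 (1.75 to 2.25) at 6 dpa and 1.97 (1.74 to 2.22) at 14 dpa. From 3 to 6 dpa the change was -0.28 (-0.47 to -0.10), and past the cut-off at -0.63 under total counts and -0.76 under the upper quartile. From 6 to 14 dpa it was -0.02 (-0.20 to 0.16), whose sign turned under 4 of the other settings.

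miR-146a-5p, the feedback inhibitor of NF-κB signalling in mammals, was by far the most abundant of the 6 in uninjured tissue and rose late. It had 4816, 2855, 6539 and 6993 reads at 0, 3, 6 and 14 dpa, or 2671, 2963, 6145 and 4563 scaled cpm. The 6 dpa library was highest and the 0 and 3 dpa libraries lay close together. At 3 dpa the log2 change was 0.15 (0.08 to 0.22), under the cut-off, and it was -0.23 when libraries were scaled by total counts. The change was 1.20 (1.15 to 1.26) at 6 dpa and 0.77 (0.72 to 0.83) at 14 dpa, the value nearest above the cut-off at that stage. Under total counts the 6 dpa value was 0.48, under the cut-off, and the 14 dpa value was -0.03.

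miR-146b-5p, which has the same seed as miR-146a-5p, went the other way at low read numbers. It had 35 reads in uninjured tissue, 0 at 3 dpa, 1 at 6 dpa, and 22 at the last stage. Only the uninjured and the 14 dpa libraries were above the floor of 3 reads. Against that floor in the 3 dpa library, its level at 3 dpa was at least 6.23-fold lower than at 0 dpa. At 6 dpa, the single read gave 0.0527 times the level at 0 dpa, a log2 change of -4.25 (-9.71 to -1.80). At 14 dpa the change was -0.43 (-1.27 to 0.37), an interval that holds 0. The 2 miR-146 sequences differ at 1 base over their shared length, so a read error there may have moved a few reads to either. Apart from that, the miR-146a-5p values were the reads of 1 exact tag, while for miR-146b-5p this was not settled.

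miR-150-5p, the miRNA of mature lymphocytes that lowers Myb in mice, was highest at 3 dpa. In order of stage it had 54, 124, 47 and 23 reads, or 29.9, 129, 44.2 and 15.0 scaled cpm. The 3 dpa library stood clear of all others, while the intervals at 6 and 0 dpa overlapped, as did those at 0 and 14 dpa. The log2 change was 2.10 (1.63 to 2.59) at 3 dpa and -0.99 (-1.77 to -0.27) at 14 dpa. For 6 dpa it was 0.56 (-0.04 to 1.15), just under the cut-off. It was -0.16 under total counts and past the cut-off under the median of ratios (0.62) and with the 3 dpa library as the TMM reference (0.76). From 3 to 6 dpa its level fell by 1.54 (interval -2.06 to -1.05), and from 6 to 14 dpa by a further 1.55 (-2.34 to -0.81).

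**Figure D2:**
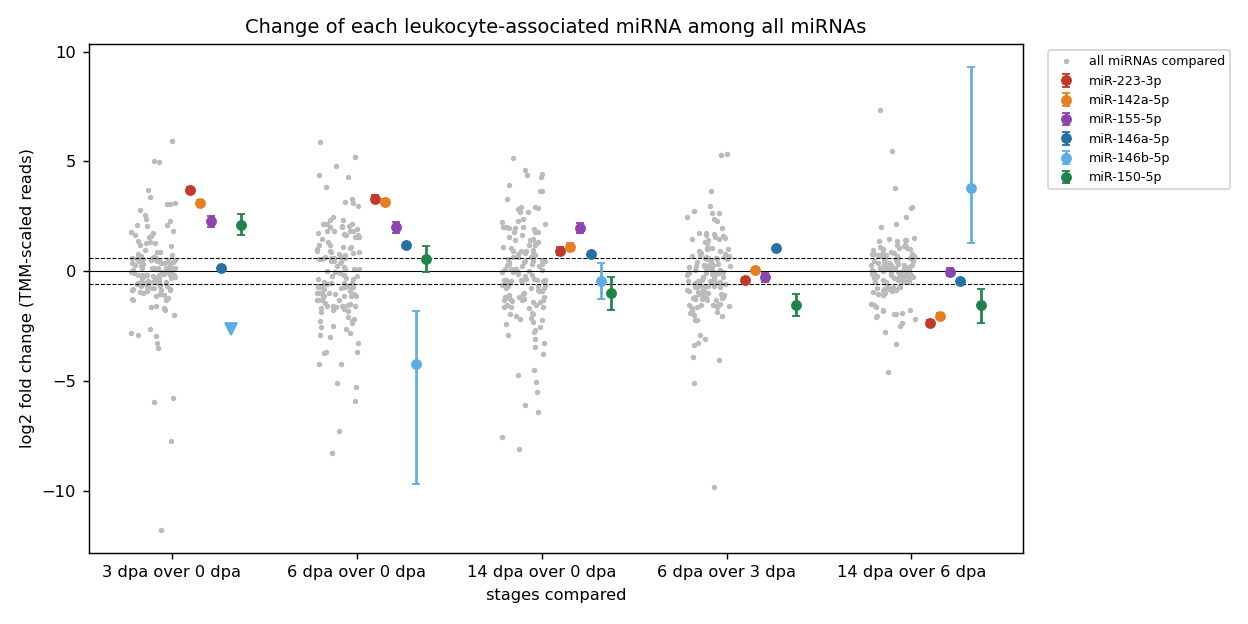
Log2 fold change (vertical axis) for 5 pairs of stages; grey points are all miRNAs compared, coloured points the 6 miRNAs with 95% counting intervals, the triangle is the bound for miR-146b-5p at 3 dpa and dashed lines are the cut-off of 0.58. Grey points include fitted values for miRNAs with 0 reads in 1 library; miR-223-3p and miR-142a-5p lie near the top at 3 and 6 dpa and near the bottom from 6 to 14 dpa.

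Scaling moved these values. Taking total counts in place of TMM shifted the median miRNA by -0.38 at 3 dpa, -0.71 at 6 dpa and -0.80 at 14 dpa on the log2 scale. Of the 4 higher calls at 14 dpa, that of miR-155-5p then remained, at 1.18, and miR-150-5p at -1.79 and miR-146b-5p at -1.23 were lower. Over 6 scalings, the 14 dpa change ran from 0.14 to 1.32 for miR-223-3p and from 0.32 to 1.50 for miR-142a-5p. At 3 dpa it ran from 3.32 to 3.78 and from 2.74 to 3.19, so both were past the cut-off under every scaling tried.

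Ratios between miRNAs of 1 library do not depend on the scaling. The 5 that reached 10 reads in each library gave 10 pairs, and of 50 changes between stages 44 had a counting interval that did not hold a fold of 1. The share over pairs of other miRNAs was not computed, so this count has no background. The 50 changes share miRNAs and libraries and are not independent of each other. miR-223-3p had 0.876, 1.31, 0.963 and 0.773 reads per read of miR-142a-5p in the 4 libraries, in order of stage. This pair stayed closest, with a ratio that rose 1.50-fold (1.29 to 1.74) from 0 to 3 dpa. Per read of miR-155-5p, miR-223-3p had 2.06, 5.54, 5.09 and 1.01 reads at 0, 3, 6 and 14 dpa. The ratio was thus high at 3 and 6 dpa and lowest at 14 dpa, where it was 0.489 times (0.396 to 0.602) that of the uninjured limb.

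Against miR-150-5p, miR-223-3p had 7.30, 22.1, 48.7 and 28.0 reads per read at 0, 3, 6 and 14 dpa. All regenerating libraries were above the uninjured one, and the 14 dpa ratio was 3.83-fold (2.27 to 6.64) higher. miR-146a-5p had 12.2, 1.04, 2.86 and 10.9 reads per read of miR-223-3p, again in order of stage. At 3 dpa the 2 miRNAs were at nearly equal reads, and at 14 dpa their ratio had an interval of change against 0 dpa that held 1 (0.985 to 1.28, for miR-223-3p over miR-146a-5p). Ratios of reads are not ratios of molecules, since capture differs between sequences.

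**Figure D3:**
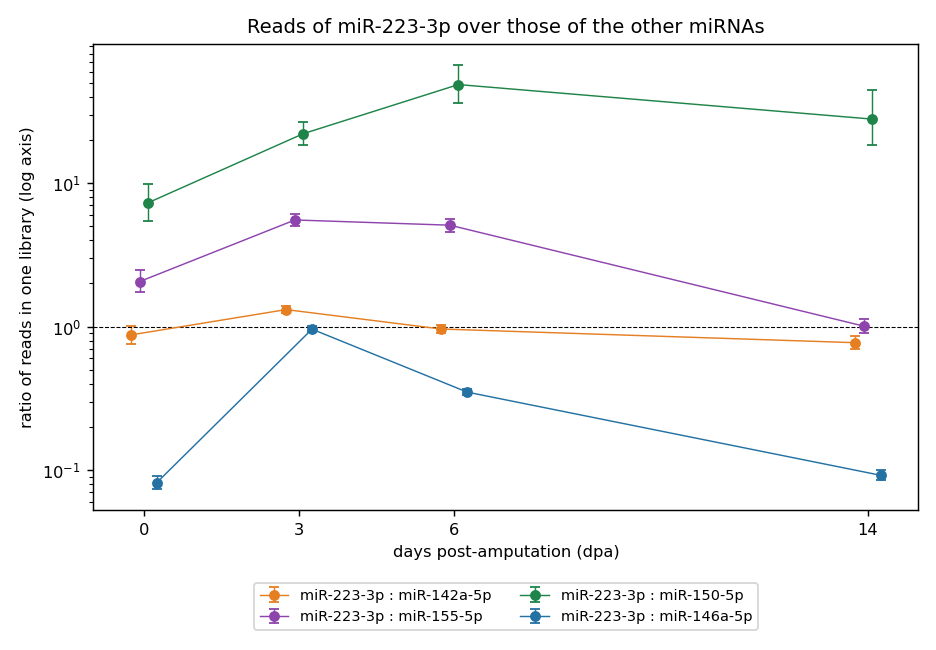
Reads of miR-223-3p divided by those of miR-142a-5p, miR-155-5p, miR-150-5p and miR-146a-5p in the same library (vertical log axis) against days post-amputation, with 95% counting intervals. The ratio to miR-142a-5p stays between 0.773 and 1.31, the ratios to miR-155-5p and miR-146a-5p are highest at 3 dpa, and that to miR-150-5p is highest at 6 dpa.

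In sum, the 6 miRNAs held 0.458% of the miRNA reads of uninjured tissue (exact interval 0.446 to 0.470). At 3, 6 and 14 dpa they held 0.921% (0.902 to 0.941), 0.926% (0.910 to 0.943) and 0.477% (0.467 to 0.487). The 3 and 6 dpa libraries were high, and the 14 dpa share of reads was close to that of the uninjured limb. On the TMM scale the sum was 3294, 8616, 10994 and 5971 scaled cpm, so that at 14 dpa it stood above the uninjured limb by a log2 change of 0.86 (0.81 to 0.91). miR-146a-5p made up 81.1%, 34.4%, 55.9% and 76.4% of these reads at 0, 3, 6 and 14 dpa. Without it, the other 5 held 0.0866%, 0.604%, 0.409% and 0.112% of the reads, so their share was highest at 3 dpa. miR-21 took a large part of the regenerating libraries, and with its reads left out of the totals the share of all 6 was 0.467%, 1.71%, 1.63% and 0.790% in order of stage.

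**Figure D4:**
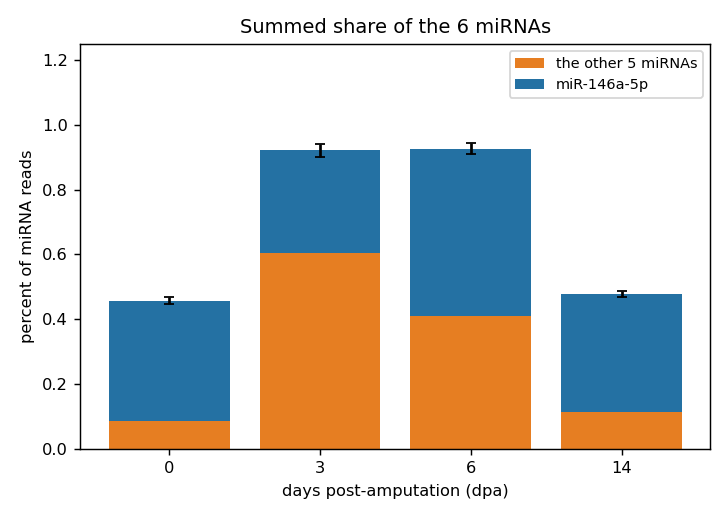
Percent of miRNA reads taken by the 6 miRNAs (vertical axis, from 0) in the libraries of 0, 3, 6 and 14 dpa, split into miR-146a-5p and the other 5. Error bars are 95% exact intervals of the sum, which is 0.458% at 0 dpa and 0.926% at 6 dpa.

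The miRNAs with the most similar course were found by the root mean square difference of centred log2 levels over the 4 stages, among the 125 others that reached 10 reads in each library. With 4 points this is a description only. The scaling of the libraries cancels out of these distances, so other scalings could not change them. The nearest to miR-223-3p was miR-142a-5p, at 0.28, followed by miR-144-5p at 0.68 and miR-425-5p at 0.69. For miR-142a-5p, the next after miR-223-3p were miR-425-5p at 0.51 and miR-2970-5p at 0.57. miR-155-5p lay nearest to miR-7b-5p (0.29), miR-725-3p (0.42) and let-7f-5p (0.51). miR-146a-5p was nearest to miR-222b-3p (0.12), miR-221-1-3p (0.15) and miR-34a-5p (0.17). miR-150-5p had no close neighbour, with miR-26b-5p and miR-29b-1-3p both at 0.65 and miR-29a-3p at 0.68. The median distance to the 125 others was 1.72 for miR-223-3p and 0.85 for miR-146a-5p, so that a small distance means less for the latter.

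miR-144 and miR-451 are made from 1 transcript in the red blood cells of vertebrates and are taken here as a sign of blood in a sample. miR-144-5p had 51, 286, 168 and 24 reads in order of stage, with log2 changes of 3.39 (2.96 to 3.85), 2.48 (2.02 to 2.96) and -0.85 (-1.62 to -0.13). miR-451-5p had 4, 138, 144 and 74 reads, with changes of 5.96 (4.62 to 7.91), 5.88 (4.54 to 7.83) and 4.40 (3.03 to 6.36). Both were thus higher at 3 and 6 dpa together with miR-223-3p and miR-142a-5p. At 14 dpa they parted, so they gave no common measure of blood at that stage. Of the 3 erythrocyte miRNAs listed 2 were found, and their summed level was 30.5, 440, 293 and 63.9 scaled cpm at 0, 3, 6 and 14 dpa. The transcript paired with *alas2*, the erythroid enzyme of heme synthesis, had 147, 741, 326 and 42 reads at these stages, with log2 changes of 0.85 (0.60 to 1.12), 0.33 (0.04 to 0.62) and -2.54 (-3.08 to -2.04). The study listed this transcript as higher at 6 dpa, so its direction there is no independent evidence, and the other stages share the 0 dpa library. The part of blood in the rise of the 6 miRNAs was not tested.

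The mRNA libraries held 15249786, 36931886, 19049794 and 18581310 reads in order of stage. The 11 leukocyte genes reported were all paired with axolotl transcripts by the study's ortholog tables, 28 transcripts in all. Of these, 11 came from its list of transcripts higher at 6 dpa and 17 from its list of lower ones. Both lists hold only changes that axolotl shared with the regenerating zebrafish fin. The direction of these transcripts at 6 dpa is thus no independent evidence, and the other stages share the 0 dpa library. The shares over all transcripts given beside them are for transcripts not selected in this way. At 3 dpa, 13 transcripts were higher and 7 lower, where 37.5% of 78124 transcripts were higher and 28.6% lower. At 6 dpa, 9 of 28 were higher and 9 lower, against 32.9% and 30.8%. At 14 dpa, 3 of 26 were higher and 16 lower, against 33.1% and 33%.

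With reads summed over paired transcripts, the scaled levels of 7 of the 11 genes were highest at 3 dpa, the stage of highest miR-223-3p. Of these genes, *csf1ra*, *plek*, *mmp9*, *spi1b*, *il1b* and *mafba* came from the list of higher transcripts and *cd74a* from that of lower ones. The share of all transcripts that were highest at 3 dpa was not computed, so the count of genes has no background. For *spi1b* it rests on the paired transcripts alone. Most of these belong to a group of 11 assembled transcripts, whose summed reads had a log2 change of -1.27 at 3 dpa. *csf1ra*, the receptor that macrophages need to survive, had 616, 16408, 6455 and 726 reads in order of stage. The 3 and 6 dpa libraries were high, and the log2 changes were 3.26 (3.14 to 3.37), 2.57 (2.45 to 2.69) and -0.50 (-0.66 to -0.35) at 3, 6 and 14 dpa. *plek*, a protein kinase C substrate of platelets and white blood cells, had 29, 554, 316 and 37 reads. *mmp9*, a matrix protease of neutrophils that wound epidermis also makes, went from 232 reads to 189790 and 33230 and then to 365, with changes of 8.20 (8.01 to 8.39), 6.34 (6.15 to 6.53) and -0.09 (-0.33 to 0.16). Its 14 dpa level was thus near that of uninjured tissue.

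*spi1b* encodes PU.1, the transcription factor of the myeloid lineage, and is a target of miR-155 in mice. Its transcript comp34871_c0_seq1 had 15, 792, 221 and 11 reads at 0, 3, 6 and 14 dpa, with log2 changes of 4.24 (3.51 to 5.09), 3.05 (2.31 to 3.92) and -1.18 (-2.46 to 0.03). The other 3 transcripts paired with it belong to 1 group of 11 assembled transcripts, a Trinity component. Each of these was higher at 3 dpa, but reads summed over that whole component changed by -1.27 at 3 dpa, -2.07 at 6 dpa and -3.64 at 14 dpa, so that they are uncertain. *il1b*, an early inflammatory cytokine, had a transcript, comp35752_c0_seq1, with 6, 1541, 59 and 45 reads and changes of 6.51 (5.40 to 7.97), 2.46 (1.27 to 3.98) and 2.15 (0.93 to 3.69), while its whole component of 5 transcripts changed by 1.70, 0.01 and 0.05. Another one, comp29405_c0_seq1, had 250, 1024, 450 and 287 reads and stayed under the cut-off throughout. *mafba*, a factor of macrophage differentiation, had 775, 3623, 1563 and 558 reads, with changes of 0.75 (0.63 to 0.86), 0.19 (0.07 to 0.32) and -1.21 (-1.37 to -1.06).

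The 5 genes from the list of lower transcripts include genes of myeloid cells (*lyz*, *alox5a*) as well as of lymphocytes and antigen presentation, and in sum over its transcripts none was past the cut-off upwards at 3 dpa. Single transcripts were higher there: *alox5a* comp18726_c0_seq1 (1.36) and comp29529_c0_seq1 (0.98), and *ikzf1* comp39360_c0_seq3 (0.79). All 7 transcripts lower at 3 dpa also belonged to these genes, among them *ikzf1* comp39360_c0_seq1 (-2.22). *ikzf1*, the lymphoid factor Ikaros, had 292, 570, 502 and 290 reads over 4 transcripts at 0, 3, 6 and 14 dpa, with log2 changes of -0.51 (-0.72 to -0.31), -0.04 (-0.25 to 0.17) and -0.75 (-0.99 to -0.51). This sum was not higher at 3 dpa, where miR-150-5p was. All but comp49942_c0_seq1 belong to 1 component of 6 transcripts, which changed by -1.10, 0.10 and -0.20, past the cut-off downwards at 3 dpa. *cd74a*, the invariant chain of MHC class II, had a main transcript with 793, 3212, 1209 and 383 reads, with changes of 0.54 (0.43 to 0.65), -0.21 (-0.34 to -0.08) and -1.79 (-1.97 to -1.61), and another with 99 reads at 0 dpa and 0 later. *ctssb.2*, a cathepsin S gene, had 5276, 2898, 773 and 216 reads over 4 transcripts and changes of -2.34 (-2.41 to -2.28), -3.59 (-3.70 to -3.48) and -5.35 (-5.55 to -5.15). Its transcript comp42018_c0_seq1 changed by 0.57, -0.08 and -2.14, while the component of the others changed by -2.90, -4.61 and -6.09. *lyz*, lysozyme, had 35 reads at 0 dpa and 0 at the later stages, at least 32.5-fold lower at 3 dpa against the floor of 3 reads. *alox5a*, the leukotriene enzyme 5-lipoxygenase, had 1295, 3244, 1490 and 1352 reads over 6 transcripts and changes of -0.15 (-0.25 to -0.06), -0.62 (-0.73 to -0.51) and -0.68 (-0.79 to -0.57), while the whole component of 2 of them changed by 1.29, 1.05 and 1.51.

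**Figure D5:**
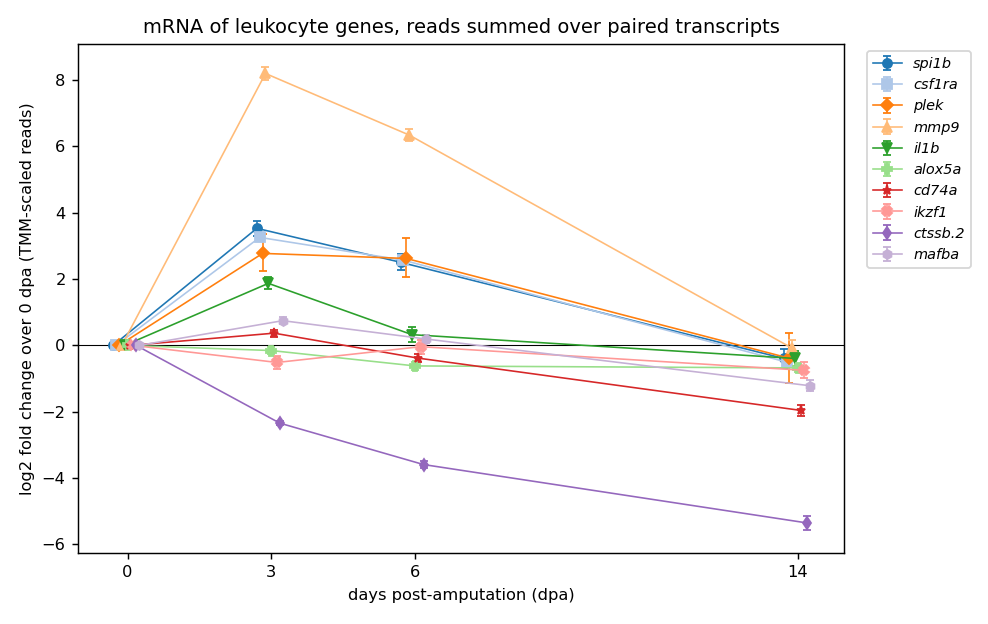
Log2 fold change over 0 dpa (vertical axis) against days post-amputation for 10 leukocyte genes, reads summed over the transcripts paired with each, with 95% counting intervals; *lyz*, at 0 reads after 0 dpa, is left out. *mmp9*, *spi1b*, *csf1ra* and *plek* are high at 3 and 6 dpa and near 0 at 14 dpa, *ctssb.2* is below 0 throughout, and the *spi1b* line includes the uncertain component.

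Genes known in mammals as targets of these miRNAs are set beside them by their values only. The 7 genes had 22 paired transcripts, 14 from the list of higher and 8 from that of lower transcripts. Their direction at 6 dpa is thus no independent evidence, and the other stages share the 0 dpa library. At 3 dpa, 10 of 21 compared were higher and 5 lower, against 37.5% and 28.6% of all transcripts. The same numbers held at 6 dpa, against 32.9% and 30.8%, and at 14 dpa 9 of 20 were higher and 4 lower, against 33.1% and 33%. At 3 dpa, the higher ones were all transcripts of *spi1b* and *il6st*, and the lower ones all of *cmyb* and *numb*. Transcripts of 1 gene are not independent of each other. Those of *spi1b* also count among the leukocyte transcripts, and most of them lie in the uncertain component. *cmyb*, a factor of blood progenitors and the target of miR-150 in mice, had 34, 57, 52 and 102 reads over 2 transcripts at 0, 3, 6 and 14 dpa. Its log2 changes were -0.73 (-1.37 to -0.08), -0.21 (-0.86 to 0.46) and 0.84 (0.27 to 1.45), lowest at 3 dpa, where miR-150-5p was highest, and highest at 14 dpa, where miR-150-5p was lowest. Both transcripts came from the list of lower ones. The whole component of comp7056_c0_seq1 changed by -0.20, 0.18 and 1.11, under the cut-off at 3 and 6 dpa. The courses of *cmyb* and miR-150-5p are 4 points without replicates. The intervals of *cmyb* at 3 and 6 dpa overlapped, as did those at 6 and 14 dpa. Those of the miR-150-5p levels at 0 and 14 dpa overlapped too.

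*smad2* and *smad5*, signal carriers of the TGF-β and BMP pathways, are targets of miR-155 in human cells. *smad2* had 480, 1166, 937 and 1366 reads at 0, 3, 6 and 14 dpa, with log2 changes of -0.20 (-0.35 to -0.04), 0.14 (-0.02 to 0.31) and 0.77 (0.62 to 0.92). *smad5* had 71, 295, 190 and 206 reads, with changes of 0.57 (0.20 to 0.97), 0.60 (0.20 to 1.01) and 0.79 (0.40 to 1.21). Both were highest at 14 dpa, with miR-155-5p still high, though the intervals of *smad5* at the 3 stages overlapped. Summed over whole components, *smad2* changed by -0.23, 0.08 and 0.66 and *smad5* by 0.43, 0.42 and 0.59. By that sum *smad5* was under the cut-off at 6 dpa and just past it at 14 dpa. *il6st*, the interleukin 6 receptor chain gp130 and a target of miR-142-3p in mice, had 545, 5413, 2096 and 1380 reads over 6 transcripts. Its changes of 1.83 (1.71 to 1.96), 1.12 (0.99 to 1.26) and 0.60 (0.46 to 0.75) were above 0 at all stages, as were those of miR-142a-5p.

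*igf1ra*, an insulin-like growth factor receptor and a target of miR-223 in human cells, had 484, 1197, 1050 and 872 reads over 2 transcripts at 0, 3, 6 and 14 dpa. Its log2 changes of -0.17 (-0.33 to -0.02), 0.30 (0.14 to 0.45) and 0.11 (-0.05 to 0.27) all stayed under the cut-off. *numb*, a Notch inhibitor and a target of miR-146a in mammals, had 121, 208, 75 and 234 reads over 6 transcripts. Its changes were -0.70 (-1.03 to -0.36), -1.51 (-1.95 to -1.08) and 0.21 (-0.11 to 0.54), lowest at 6 dpa, where miR-146a-5p was highest. All 6 transcripts came from the list of those lower at 6 dpa, so the low at that stage is no independent evidence. Summed over the whole component of 9 transcripts of *numb*, the changes were -0.17, -0.30 and -0.22 at 3, 6 and 14 dpa, all under the cut-off.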

How the data were processed

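Per the labels and the study's methods, small RNA reads were clipped, trimmed and collapsed into tags with the FASTX Toolkit and matched to known miRNAs. The mRNA reads were trimmed with Trimmomatic, assembled with Trinity and counted with RSEM. Versions are not given in the sources used here. Both deposited tables hold log2 values of whole read numbers (largest relative deviation 3.47e-09), not log2 cpm. Among the miRNA values, 7 error marks were read as 0 reads, as were mRNA entries of 0, which can stand for 0 or 1 read. Repeated mRNA lines were used once, leaving 90099 of 93299 lines.

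Reads were scaled by TMM (0 dpa as reference, trims of 30% and 5%), and a prior count of 0.125 was added. Intervals are exact Clopper-Pearson intervals at 95%. Transcripts with under 10 reads over a pair of libraries were left out. With 1 library per stage no test was made. Alternatives were other scalings, a prior count of 0.5, a cut-off of 1, a minimum of 10 reads, and component sums. Computations used Python 3.11.15, NumPy 2.4.6, pandas 2.3.3, SciPy 1.17.1 and matplotlib 3.10.9. They were tested on simulated reads with counting error only. That does not test differences between pools or the choice of scaling for these data. Gene names came from the study's ortholog tables, held in part. The rule names all 6 miRNAs, the 3 nearest profiles of each with at least 10 reads in every library, the erythrocyte miRNAs and the listed genes with a paired transcript. A listed gene is not reported here. The 6 miRNAs, the lists and the tests were chosen with earlier results of these data known.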

Additional observations from a re-analysis of the deposited data

How the results depend on the processing

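No paired analysis was possible because each stage has 1 library of each kind. No stage difference can be separated from differences between pools of tissue, and miR-146b-5p and miR-150-5p rest on few reads. Under total counts, 1 miRNA was higher and 2 were lower at 14 dpa versus 0 dpa, and 3 were lower from 3 to 6 dpa; the 14 dpa change of miR-146a-5p became -0.026. Under the upper quartile, 2 were lower at 14 dpa, while 3 to 6 dpa gave 0 higher and 3 lower. Of all miRNAs called past the cut-off at 14 dpa, 47.2% were higher under TMM, 29.2% under total counts and 39.8% under the upper quartile. From 3 to 6 dpa these parts were 42.7%, 30.2% and 25.3%, so the calls over all miRNAs moved with the scaling as well. With a cut-off of 1, 2 were higher and 0 lower at 14 dpa. With miRNAs of at least 10 reads in every library, which leaves out miR-146b-5p by construction, 0 were lower at 3 and at 6 dpa and 0 were higher from 6 to 14 dpa. For this setting and the cut-off of 1, the share over all miRNAs was not computed. The summed share without miR-146a was 0.0866%, 0.604%, 0.409% and 0.112% at 0, 3, 6 and 14 dpa, and the share of all 6 with miR-21 left out of the totals was 1.71%, 1.63% and 0.790% at 3, 6 and 14 dpa. Another scaling moves all miRNAs with reads in both libraries by nearly the same amount, -0.80 for the median miRNA at 14 dpa under total counts. A cut-off of 1 changes no value and only the calls. Why the scalings differ was not tested. A prior count of 0.5, the median of ratios, TMM with the 3 dpa reference and TMM without miR-21 left every count of miRNAs within 1.5 times. All 50 changes of ratios kept their direction when 0.5 was added to each count. Pooled over the 47 transcripts of the leukocyte, erythroid and target lists, the counts of mRNA transcripts stayed within 1.5 times under 3 other scalings and component sums. The same held, added after seeing the data, for entries of 0 taken as 1 read. Separate lists were not checked, and single calls could turn under component sums. The *spi1b* transcripts of the larger component were each higher at 3 dpa, while their component changed by -1.27.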
